A study of Mus musculus with 2 samples.

Results

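Cycling intermediate progenitor cells (IPCs) of the mouse embryonic cortex were described from single-cell RNA-seq of the dorsal telencephalon. A cell barcode was a member when it held at least 2 Eomes UMIs, at least 3 UMIs of Top2a, Mki67 and Cenpf together, at most 2 Neurod6 UMIs and at most 1 UMI of Gad1, Gad2 and Dlx6os1 together. A UMI (unique molecular identifier) marks 1 captured RNA molecule. In all, 107 of 12936 kept barcodes met these gates, 49 of 5453 in replicate 1 and 58 of 7483 in replicate 3. The members were chosen by their measured UMI counts, so the levels of these 8 genes describe how the members were chosen and were not tested.

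The series holds 2 libraries of 1 group. Both were wild-type (WT) embryos of embryonic day 14.5 (E14.5), titled with the line name EoMltt3 and numbered replicates 1 and 3 by their library names. The series text calls the animals EomesMllt3 controls, its title names the Eomes-Cre mouse line, the genotype label is WT, and the study's methods give a C57BL/6J background, with cells released by papain. No sex, treatment or Cre status of the single embryos was stated in the labels, and the labelled tissue, brain hemispheres, is wider than the dorsal telencephalon of the series text.

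Radial glial cells (RGCs) line the ventricle, renew themselves and give rise to IPCs. IPCs switch on the T-box factor Eomes (also called Tbr2), move to the subventricular zone and usually divide into a pair of excitatory neurons, so that they amplify neuronal output after RGC division. Top2a (a topoisomerase that untangles replicated chromosomes), Mki67 (a coat protein of mitotic chromosomes) and Cenpf (a kinetochore protein) are made mainly from S phase to mitosis. Neurod6 marks postmitotic projection neurons, and Gad1, Gad2 and Dlx6os1 mark GABAergic cells.

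The promoters of 3 genes of the gate and of Gadd45g, one of the neurogenic genes that separated the members from RGCs, are shown as examples with and without the motifs described next, as the 250 bases before the start of transcription in RefSeq, build GRCm38.p6 (mm10). They lie at chr9:118477939-118478188 on the plus strand (Eomes), chr11:99024190-99024439 on the minus strand (Top2a), chr7:135716380-135716629 on the minus strand (Mki67) and chr13:51846425-51846674 on the plus strand (Gadd45g), and are written 5′ to 3′. Capitals mark matches on either strand to CCAAT, the box read by NF-Y in many cell-cycle promoters, TTTGAA, a form of the cell-cycle homology element, or the E-boxes CAGCTG and CAGATG, of the kind bound by proneural bHLH factors.
Eomes: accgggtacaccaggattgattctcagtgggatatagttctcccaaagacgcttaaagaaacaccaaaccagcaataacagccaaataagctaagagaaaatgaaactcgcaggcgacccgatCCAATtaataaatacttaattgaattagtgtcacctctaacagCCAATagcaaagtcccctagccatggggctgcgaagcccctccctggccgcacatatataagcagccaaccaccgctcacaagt
Top2a: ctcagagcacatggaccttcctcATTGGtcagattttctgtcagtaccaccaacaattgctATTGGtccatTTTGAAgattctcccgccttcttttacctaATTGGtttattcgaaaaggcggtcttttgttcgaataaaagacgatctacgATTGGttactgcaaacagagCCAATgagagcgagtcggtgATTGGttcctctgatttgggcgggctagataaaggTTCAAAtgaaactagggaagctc
Mki67: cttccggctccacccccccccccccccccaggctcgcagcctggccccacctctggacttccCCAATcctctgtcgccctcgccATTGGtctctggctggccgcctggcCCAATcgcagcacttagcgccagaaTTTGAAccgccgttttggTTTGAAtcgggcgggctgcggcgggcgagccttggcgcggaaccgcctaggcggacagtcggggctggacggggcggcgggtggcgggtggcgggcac
Gadd45g: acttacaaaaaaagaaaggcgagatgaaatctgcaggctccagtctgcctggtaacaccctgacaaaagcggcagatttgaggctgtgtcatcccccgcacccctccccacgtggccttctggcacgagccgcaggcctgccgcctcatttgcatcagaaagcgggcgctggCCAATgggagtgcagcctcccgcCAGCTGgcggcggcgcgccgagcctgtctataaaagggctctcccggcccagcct
Top2a held 6 CCAAT and 2 TTTGAA matches, Mki67 3 and 2, Eomes 2 and 0, and Gadd45g 1 CCAAT and 1 CAGCTG. No 2 matches overlapped in these 4 windows. The other gate gene of the cycle, Cenpf, held 2 CCAAT and 0 TTTGAA matches, and neither Btg2 nor Rbfox3 held CAGCTG or CAGATG. Other E-boxes were not searched. CCAAT was present in 33.8% of all 32851 RefSeq promoter windows of this length, TTTGAA in 16.0%, CAGCTG in 13% and CAGATG in 14.4%. Of 13569 windows of genes tested against cycling RGCs, 35.2%, 10.8%, 12.1% and 10.1% held them. Of 52 windows matched to 47 of the 54 G2M genes listed, 75.0% held CCAAT and 40.4% held TTTGAA. Of 26 windows matched to 19 of the 30 neurogenic genes listed, 57.7% held CCAAT, 34.6% CAGCTG and 23.1% CAGATG, and of 443 windows of the genes higher in cycling IPCs than in cycling RGCs, 33.0% held CCAAT, 16.3% CAGCTG and 14% CAGATG. These are matches of letters and not binding sites.

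The libraries held 6163 and 8870 barcodes with 64182006 and 93295807 UMIs, of which 5453 and 7483 barcodes passed 1500 to 60000 UMIs and under 10% mitochondrial UMIs, with medians of 10627 and 10895 UMIs. The libraries shared 23 barcode sequences, none of them a member's, and differed by more than counting noise (chi-square of 80.2 per gene over 21040 genes). The labels give them as separate samples without naming the embryos, so that p-values measure the spread between these 2 samples, which may be technical.

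Members made up 0.899% of the kept barcodes in replicate 1 (95% Wilson interval 0.680 to 1.19) and 0.775% in replicate 3 (0.60 to 1.0), on average 0.837% ± 0.0873 (SD, n = 2). Intervals on shares of cells cover counting error only. Their UMI totals ran from 2363 to 42995, with medians of 14241 and 12689.5, close to cycling RGCs (14988.5 and 14345) and above IPCs without cycle UMIs (10109.5 and 9697.5). Eomes, the transcription factor that defines IPCs, had a median of 6 UMIs per member in replicate 1 (2 to 14) and 4 in replicate 3 (2 to 16). The cycle genes together had medians of 12 and 15.5 UMIs, from 3 up to 130, and 71 members held UMIs of all 3 of them.

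**Figure D1:**
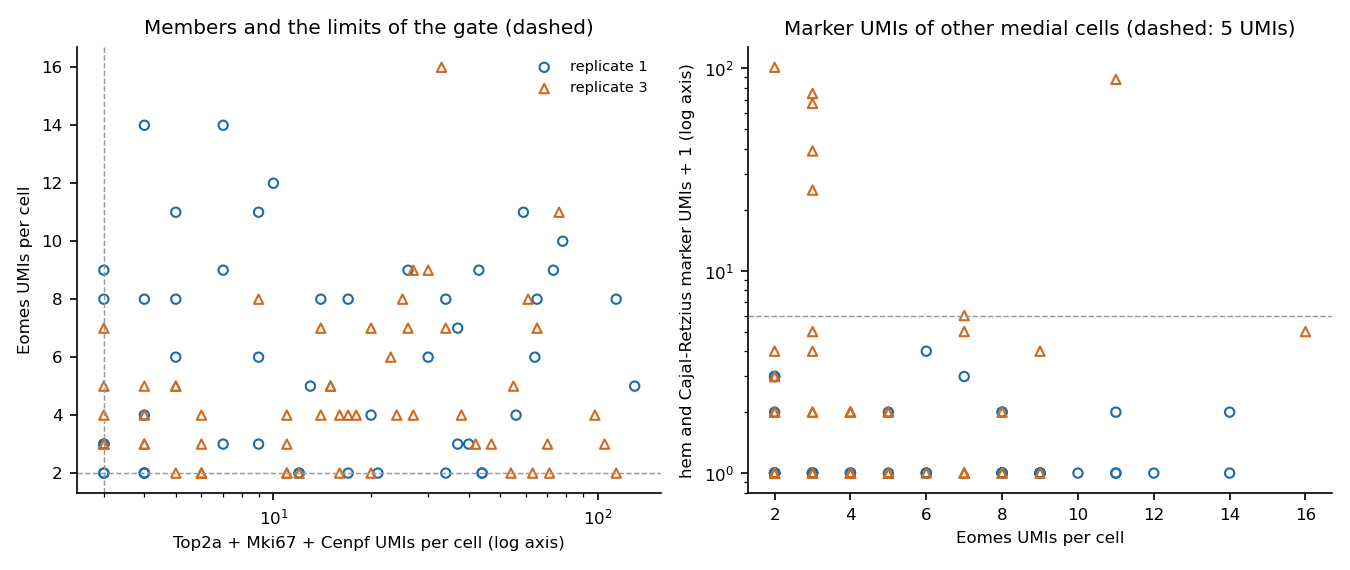
Each point is 1 member (replicates 1 and 3 by colour and shape). The left panel plots Eomes UMIs against the UMIs of Top2a, Mki67 and Cenpf together with the gate limits of 2 and 3 as dashed lines, and the right panel plots the UMIs of cortical hem and Cajal-Retzius markers (plus 1, log axis) against Eomes UMIs, where 7 points of replicate 3 and none of replicate 1 lie at or above the dashed line at 5 UMIs.

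Just inside the limits, 25 members held exactly 2 Eomes UMIs and 14 held exactly 3 cycle UMIs, with 2 at both limits. Just outside, 75 barcodes met every other gate with 1 Eomes UMI, 33 with 2 cycle UMIs and 96 with 1. The limit on Neurod6 set aside more barcodes than were kept, 92 in replicate 1 and 143 in replicate 3. These 235 barcodes held a median of 9 Neurod6 UMIs (3 to 30) and 17790 UMIs in all, above the members' medians, and 16.3% and 30.8% of them were among the barcodes with the highest doublet scores. Of the members, 2.04% and 12.1% had such a doublet score, beside 4.36% and 5.99% of all kept barcodes.

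Among the 317 and 479 barcodes past the Eomes, Neurod6 and GABAergic gates, 15.5% (11.9 to 19.8) and 12.1% (9.48 to 15.3) also passed the cycle gate. Among the 744 and 1711 barcodes with at least 3 Slc1a3 and Fabp7 UMIs together (a glutamate transporter and a fatty acid binding protein of RGCs) and no Eomes, the share was 58.6% (55.0 to 62.1) and 50.9% (48.5 to 53.3). With every cell thinned to 3000 UMIs, so that depth was equal, 16.6% and 15.4% of cells with an Eomes UMI held a cycle UMI, against 40.3% and 42.9% of cells with Slc1a3 or Fabp7 and no Eomes UMI. The thinned shares used a looser gate than the others, and all of them rest on the gate genes and are given as a description.

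Reference classes were gated in the same way. Cycling RGCs (1307 cells, 436 and 871) had at least 3 Slc1a3 and Fabp7 UMIs, at least 3 cycle UMIs and no Eomes. IPCs without cycle UMIs (560 cells, 222 and 338) met the Eomes, Neurod6 and GABAergic gates with none of the 3 cycle genes, and projection neurons (4493 cells, 2093 and 2400) held at least 3 Neurod6 UMIs. Raw UMIs were summed per class and replicate, 755574 and 869482 UMIs for the members. Levels are given as UMIs per 1000000 UMIs of such a sum (CPM), and they compare 1 gene between classes, not different genes with each other. Fold changes are log2 values ± SE from edgeR's quasi-likelihood test on the sums, and adjusted p is Benjamini-Hochberg over all genes tested, with calls under 0.05.

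The levels of the gate genes were fixed by the rule. Eomes stood at 384 and 301 CPM in the members of replicates 1 and 3, 844 and 520.5 in IPCs without cycle UMIs and 0 in cycling RGCs. Top2a was at 785 and 784 CPM in the members and 804 and 739 in cycling RGCs, and Mki67 at 355 and 307 and 382 and 326. Of the 43 other S phase genes and the 51 other G2M genes measured, which the gates had not used, none passed the test between cycling IPCs and cycling RGCs, and 9 and 1 of them had an unadjusted p under 0.05. Their median fold changes were -0.04 and -0.01, beside -0.05 over all genes tested. Both classes had met the same gate on Top2a, Mki67 and Cenpf, so that the likeness of the other cycle genes is tied to the gate. Of other genes known for IPCs, Neurog2, Insm1 and Gadd45g, given further on, were high in both IPC classes.

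Phases were called on cells thinned to 3000 UMIs with 43 S and 51 G2M genes, leaving out the gate genes. In replicate 1, 22.9% of members scored as S (13.3 to 36.5), 66.7% as G2M (52.5 to 78.3) and 10.4% as G1. In replicate 3, 24.1% scored as S (15.0 to 36.5), 65.5% as G2M (52.7 to 76.4) and 10.3% as G1. The mean was 66.1% ± 0.813 in G2M and 23.5% ± 0.864 in S (SD, n = 2). Cycling RGCs had 67.8% and 65.7% in G2M and 26.4% and 30.2% in S, within the counting intervals of the members. IPCs without cycle UMIs scored as G1 in 88.1% and 86.6% of cells, and no cycling was read from the remaining phase calls. Without thinning, members scored as G2M in 61.2% and 63.8% and cycling RGCs in 68.6% and 67.3%. The gate needed Top2a, Mki67 and Cenpf, which peak late in the cycle, so these shares describe the gated cells and not the length of any phase.

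**Figure D2:**
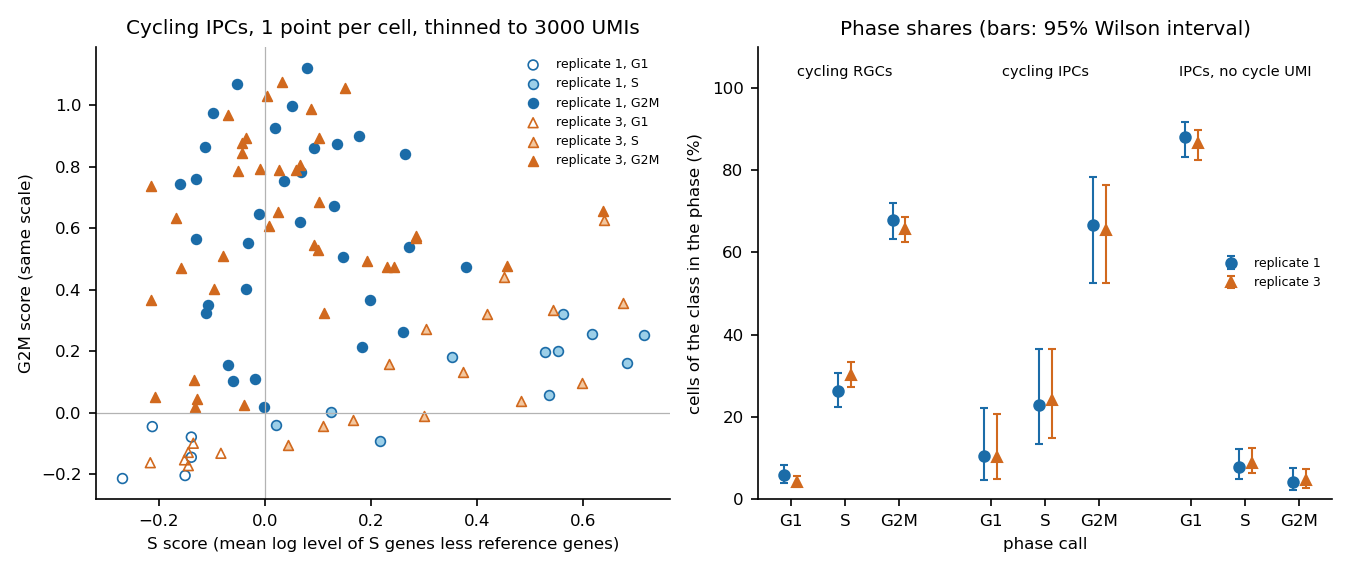
The left panel plots the S score against the G2M score of each member, coloured by called phase. The right panel gives the share of cells called G1, S and G2M in members, cycling RGCs and IPCs without cycle UMIs, 1 mark per replicate with 95% Wilson intervals. Members and cycling RGCs have 65.5% to 67.8% of cells in G2M, against 4.11% and 4.57% in IPCs without cycle UMIs.

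The members of the 2 libraries also differed in markers of the cortical hem, a signalling centre at the cortical edge, and of Cajal-Retzius cells, early neurons of the marginal zone. In replicate 1, 0 of the 49 members, which allows up to 6.12%, held 5 or more UMIs of the cortical hem and Cajal-Retzius markers together, and the highest sum was 3. In replicate 3, 7 of 58 (12.1%) did, with a highest sum of 100. These 7 cells held 146 of the 148 UMIs of Rspo3, a Wnt agonist of the hem, and 76 of the 83 UMIs of Reln, the reelin ligand made by Cajal-Retzius cells. They also held 68 of 69 UMIs of Cdkn1a, an inhibitor of the cell cycle, and 85 of 95 of Ebf1. Of the 7, 5 stood at the limit of 3 cycle UMIs. The Cdkn1a UMIs lay in 4 cells with 0 to 2 Neurog2 UMIs, so that the counts of these 4 cells go against their name as cycling IPCs. This did not hold for all 7. The highest cycle sum among them was 76, in a cell with 11 Eomes and 4 Neurog2 UMIs and no Cdkn1a UMI. Among IPCs without cycle UMIs, 11.7% and 11.2% of cells reached 5 such UMIs, and among cycling RGCs 2.98% and 7.92%, so that of these classes only the members of replicate 1 had none. Without the 7 cells, 669 of 752 calls against cycling RGCs and 1379 of 1417 against IPCs without cycle UMIs remained, and Gli3, Tbr1, Dll3 and Fat4 lost their calls against cycling RGCs. In all, 733 and 1643 genes were then called. Only members were removed, and the other classes kept their cells with such UMIs, so the comparison is not free of them.

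Compared with cycling RGCs under the same gate on cycle genes, cycling IPCs had higher levels of 18 of 29 neurogenic genes, among them Neurog2, Insm1 and Gadd45g, and of 6 of 30 neuronal genes, among them Rbfox3 and Elavl2. Lower were 9 of 28 RGC genes, among them Nes and Sox9, and 4 of 22 Notch pathway genes, among them Hes1. In the same lists, 5 Notch pathway genes and 1 RGC gene were higher, and 2 neurogenic genes were lower. The classes were parted by Eomes, Slc1a3 and Fabp7, which were not tested. Differences of neurogenic and RGC genes expressed along with these 3 are tied to the gates. Of 13901 genes, 414 (2.98%) were higher and 338 (2.43%) lower in cycling IPCs, 5.41% in either direction. In each single replicate, all 752 called genes had the same sign as in the joint fit. The joint fit used these same replicates, so the shared sign is no separate support for the calls. A stricter gate of 4 Eomes and 6 cycle UMIs left 22 and 26 members and 482 of these calls. With the replicate number as a block, the genes called lower numbered 512.

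Neurog2, the proneural bHLH factor that activates Eomes, stood at 29.1 and 33 CPM in cycling RGCs and at 435 and 340.4 in the members (log2 fold change 3.62 ± 0.19, adjusted p = 2.67e-05). Gadd45g, a stress-response family gene of cells leaving the progenitor state, was at 17.7 and 29.7 CPM in cycling RGCs and 352 and 500.3 in the members (4.12 ± 0.35, adjusted p = 0.000334). Insm1, a zinc-finger factor needed for IPC generation, was at 14 and 10.8 CPM in cycling RGCs and 185 and 117 in the members (3.60 ± 0.26, adjusted p = 0.000144). For each of the 3 genes, both replicates of the members lay above both replicates of cycling RGCs by more than the replicates differed. The neurogenic list of 30 genes had 18 of 29 tested genes higher and 2 lower, with a median of 2.06. Among them, Hes6, an inhibitor of Hes1, was at 36 and 39.9 CPM in cycling RGCs and 304 and 340.4 in the members (3.06 ± 0.18, adjusted p = 3.76e-05). Btg2, an antiproliferative gene of neurogenic divisions, was at 39.3 and 37 CPM in cycling RGCs and 185 and 138 in the members (2.06 ± 0.18, adjusted p = 0.000334). Neurod1 reached 26.5 and 26.5 CPM from 1.18 and 1.44 (4.08 ± 0.37, adjusted p = 0.000454). Neurod4 had no UMI in cycling RGCs and 17 in the members, at least 69.6-fold higher when 3 UMIs over both replicates are taken as the floor. The 2 lower genes were Id3 and Id4, which hold back bHLH factors. Id4 was at 289.8 and 344 CPM in cycling RGCs and 136 and 162 in the members (-1.10 ± 0.15, adjusted p = 0.00356).

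The Notch pathway keeps RGCs undifferentiated through signals from neighbouring cells. Of its 22 listed genes, 5 were higher and 4 lower in cycling IPCs. The ligand Dll1 was at 3.83 and 3.42 CPM in cycling RGCs and 45 and 49.5 in the members (3.64 ± 0.25, adjusted p = 8.56e-05). Mfng, a Fringe enzyme that modifies the receptors, was at 3.97 and 5.10 CPM in cycling RGCs and 94 and 102 in the members (4.33 ± 0.19, adjusted p = 2.67e-05). Dll3 (a ligand that acts within the cell), Numbl and Rbpj were the other higher genes. On the receiving side, the target genes Hes1, at 104 and 105 CPM in cycling RGCs and 43.7 and 27.6 in the members, and Hes5, at 74.9 and 61.6 CPM in cycling RGCs and 23.8 and 29.9 in the members, were lower (-1.57 ± 0.36, adjusted p = 0.0407 and -1.34 ± 0.32, adjusted p = 0.0461), Hes5 without a call once doublet-scored cells were left out. The receptor Notch1 stood at 167 and 135 CPM in cycling RGCs and 149.6 and 133 in the members (-0.10 ± 0.18, adjusted p = 0.823). Notch2 was at 240.2 and 199 CPM in cycling RGCs and 114 and 118 in the members (-0.92 ± 0.23, adjusted p = 0.0505), which passed with the replicate block (adjusted p = 0.0296). Lfng, another Fringe enzyme, had 298 UMIs in cycling RGCs and 1 in the members, a ratio of 24.3 (exact 95% counting interval 4.32 to 962), and Dlk1 had 300 and 1, a ratio of 24.4 (4.35 to 969). Dlk1 lost its call when RGC-gated cells with vascular markers were left out, and Dll3 when the members with hem or Cajal-Retzius markers were left out.

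RGC genes were lower in part. Of 28 tested, 9 were lower and 1, Prom1, was higher, with a median of -0.78. Nes, the progenitor intermediate filament nestin, was at 257 and 250.1 CPM in cycling RGCs and 143 and 102 in the members (-1.06 ± 0.15, adjusted p = 0.00511). Sox9, a progenitor HMG-box factor, was at 239 and 230.4 CPM in cycling RGCs and 118 and 138 in the members (-0.88 ± 0.14, adjusted p = 0.00787). Aldoc, a glycolytic enzyme of RGCs and astrocytes, showed the largest difference of the 9, at 279 and 286 CPM in cycling RGCs and 78.1 and 72.5 in the members (-1.92 ± 0.32, adjusted p = 0.0117). Pax6 and Sox2, the factors that mark RGC identity, did not pass. Pax6 was at 236 and 208 CPM in cycling RGCs and 225 and 171 in the members (-0.18 ± 0.20, adjusted p = 0.696). Sox2 was at 315 and 237 CPM in cycling RGCs and 221 and 181 in the members (-0.47 ± 0.20, adjusted p = 0.232). The classes' replicates overlapped for Pax6 and did not for Sox2.

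Some neuronal genes were higher in the members. Of the 30 neuronal differentiation genes, 6 were higher and none lower (median 0.42). Rbfox3, the splicing factor known as NeuN, was at 2.35 and 5.70 CPM in cycling RGCs and 172 and 162 in the members (5.18 ± 0.28, adjusted p = 2.67e-05), the first of the 10 largest increases among genes at 50 CPM or more. Elavl2, a neuronal RNA-binding protein, was at 92.1 and 114 CPM in cycling RGCs and 578 and 718 in the members (2.64 ± 0.15, adjusted p = 3.57e-05), and its relative Elavl4 at 68.4 and 73.5 CPM in cycling RGCs and 455 and 460.04 in the members (2.67 ± 0.11, adjusted p = 2.67e-05). Dcx, a microtubule protein of migrating neurons, was at 16.9 and 23.2 CPM in cycling RGCs and 105 and 104 in the members (2.33 ± 0.19, adjusted p = 0.000235), far under the 672 and 640.3 of projection neurons. Srrm4, a splicing regulator of neuronal microexons, at 10.3 and 17 CPM in cycling RGCs and 326 and 323 in the members (4.50 ± 0.22, adjusted p = 2.67e-05), Clvs1 and Myt1, a neuronal zinc-finger factor, were also among them. Of 12 upper-layer genes, Pou3f1 and Mdga1 were higher.

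Of 26 genes of G1 control and 23 spindle and microcephaly genes, 1 each was called, near the 5.41% of all genes. In the G1 list, E2f1, which turns on S phase genes, was the 1 called, at 25.6 and 25.5 CPM in cycling RGCs and 78.1 and 55.2 in the members (1.36 ± 0.23, adjusted p = 0.0118). Ccnd1, cyclin D1, was at 87.1 and 52.9 CPM in cycling RGCs and 224 and 109 in the members (1.24 ± 0.33, adjusted p = 0.0675). Cdk6, its kinase, was at 255 and 199.6 CPM in cycling RGCs and 590.3 and 281 in the members (0.93 ± 0.34, adjusted p = 0.16). Both members' values lay above both RGC values in each gene, with the 2 replicates of the members far apart, and both genes passed with the replicate block (adjusted p = 0.00602 and 0.0119). In the spindle list, Cenpj, a centriole duplication factor, was higher, at 39.7 and 33.6 CPM in cycling RGCs and 76.8 and 71.3 in the members (1.0 ± 0.15, adjusted p = 0.00752).

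Delamination, the loss of attachment to the ventricle, takes IPCs to the subventricular zone. Of 19 junction and delamination genes tested, 4 were higher and 2 lower. Lzts1, which promotes detachment of newborn cells, was at 13.4 and 7.91 CPM in cycling RGCs and 134 and 114 in the members (3.55 ± 0.23, adjusted p = 6.61e-05). Akna, a centrosomal protein of delaminating cells, was at 5.44 and 3.88 CPM in cycling RGCs and 23.8 and 13.8 in the members (1.97 ± 0.38, adjusted p = 0.0212). The junction gene Plekha7 went the other way, at 113 and 113 CPM in cycling RGCs and 33.1 and 57.5 in the members (-1.31 ± 0.28, adjusted p = 0.0328), as did the atypical cadherin Fat4 (-0.93 ± 0.19, adjusted p = 0.0253), which was not called once the members with hem or Cajal-Retzius markers were left out.

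The study examined signalling from somatostatin interneurons to cortical progenitors, so receptors and ligands of such cues were listed. Of 35 tested, 4 were higher and 5 lower in cycling IPCs. Sstr2, a somatostatin receptor, was at 1.03 and 1.52 CPM in cycling RGCs and 27.8 and 31.1 in the members (4.24 ± 0.25, adjusted p = 3.58e-05). The ephrin receptor Epha3 was at 127 and 64.9 CPM in cycling RGCs and 502 and 788 in the members (2.75 ± 0.30, adjusted p = 0.00135). The reelin receptor Lrp8 was at 37.7 and 35.9 CPM in cycling RGCs and 197 and 176 in the members (2.33 ± 0.15, adjusted p = 5.65e-05). The semaphorin co-receptor Plxna2 was at 136 and 98.8 CPM in cycling RGCs and 508 and 519.9 in the members (2.12 ± 0.16, adjusted p = 0.000152). These receptors were higher in both replicates, while the reelin adaptor Dab1 was lower, at 461 and 432 CPM in cycling RGCs and 224 and 228 in the members (-0.99 ± 0.16, adjusted p = 0.00885). Nrg3, Slc12a2, Efnb1 and Cxcl12 were the other lower genes, of which Cxcl12, a chemokine at 28 and 23.4 CPM in cycling RGCs and 5.29 and 6.90 in the members (-2.03 ± 0.49, adjusted p = 0.0472), turned direction without the RGC-gated cells that carried vascular markers (1.79, adjusted p = 0.186). The ephrin receptor Epha4, at 488 and 504 CPM in cycling RGCs and 487 and 574 in the members, and the adhesion gene Nlgn1 did not pass (0.09 ± 0.18, adjusted p = 0.851 and 0.17 ± 0.18, adjusted p = 0.669).

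Of 31 Wnt, FGF and BMP genes, none was higher and 5 were lower (median -0.42). The Wnt effector Tcf7l2 was at 186 and 157 CPM in cycling RGCs and 78.1 and 70.2 in the members (-1.22 ± 0.15, adjusted p = 0.00239). The receptor Fgfr1 was at 137 and 105 CPM in cycling RGCs and 76.8 and 49.5 in the members (-0.96 ± 0.21, adjusted p = 0.0325). Dnmt1, the maintenance DNA methyltransferase, was at 109 and 107 CPM in cycling RGCs and 78.1 and 82.8 in the members and did not pass (-0.44 ± 0.13, adjusted p = 0.0968), whereas the de novo enzyme Dnmt3a was lower (-0.66 ± 0.12, adjusted p = 0.0165). Of 16 DNA methylation genes tested, 1 was higher and 1 lower, beside 5.41% called over all genes. Mllt3, a reader of acylated histones named in the label of the line, was at 576 and 561 CPM in cycling RGCs and 948 and 822 in the members (0.63 ± 0.13, adjusted p = 0.0267). Jun, an immediate early gene, was lower at 318 and 298 CPM in cycling RGCs and 144 and 145 in the members (-1.10 ± 0.14, adjusted p = 0.00239). It was the 1 gene called among 12 stress genes, beside the same 5.41% of all genes.

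Of 11 vascular markers tested, 5 were lower in the members. All 12 vascular and meningeal markers summed to 13.2 and 11.5 CPM in the members, with 7 and 8 of them at 0, against 283 and 197 CPM in cycling RGCs, where 47 cells also met the vascular gate. Without those 47 cells, 603 of the 752 calls remained, and Dcn, Trpm3, Dlc1, Col4a1, S100a11 and Lgals1, all among the 10 largest decreases, lost their calls. Id3, Apoe and Tagln2 kept theirs. The 12 GABAergic markers summed to 55.6 and 50.6 CPM in the members and to 122 and 79.3 in cycling RGCs, and the 8 microglial markers to 9.26 and 10.4 in the members. The 8 erythroid markers summed to 86.0 and 335 CPM in the members, 156 and 553 in IPCs without cycle UMIs and 766 and 428 in cycling RGCs. The part of other cells in the remaining differences was not tested.

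The second comparison set cycling IPCs against IPCs without cycle UMIs, which share the Eomes gate. Cycling IPCs had higher levels of 9 of 30 RGC genes, among them Sox2 and Nes, and of 11 of 25 genes of G1 control, among them Ccnd1 and Ccnd2. Lower were 10 of 30 neuronal genes, among them Tubb3 and Rbfox3, 5 of 29 neurogenic genes, among them Neurod1 and Sox4, and the inhibitor Cdkn1c. In the same lists, 1 neuronal gene and 2 neurogenic genes were higher, and 1 RGC gene was lower. Of 13786 genes, 888 (6.44%) were higher and 529 (3.84%) lower (10.3% in all), the latter 815 with the replicate block. All 1417 had the same sign in each single replicate, which is no separate support because the calls came from these replicates. The stricter gate of 4 Eomes and 6 cycle UMIs kept 862 of these calls, and the limit to 6000 to 20000 UMIs kept 975. Of 69 called genes named for this comparison, 31 lost their calls with the stricter gate and 23 at 6000 to 20000 UMIs. A further setting, which let the IPCs without cycle UMIs hold up to 2, lost 15. The lists of S, G2M and spindle genes follow from the gate on cycle genes and are described without a test. Other cycle genes entered the test and are among the 888, and the 10 largest increases, led by Kif4, a mitotic kinesin, included Melk, Cep55, Spc25 and Ncapg, whose higher level is likewise tied to the gate. All 43 S genes (median 1.95) and all 54 G2M genes (median 5.40) of the fit had a positive fold change, and so had 20 of 23 spindle genes. For example, Ccnb1, cyclin B1, was at 2.19 and 2.44 CPM in IPCs without cycle UMIs and 192 and 230.02 in the members.

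Of the neurogenic list, 5 of 29 genes were lower and 2 higher in the members (median -0.52). Neurod1, a later bHLH factor, was at 93.8 and 60.5 CPM in IPCs without cycle UMIs and 26.5 and 26.5 in the members (-1.54 ± 0.26, adjusted p = 0.00623). Sox4, a factor of neuronal maturation, was at 1299 and 1236 CPM in IPCs without cycle UMIs and 778 and 696 in the members (-0.80 ± 0.13, adjusted p = 0.0066). Neurod2, Sox11 and Elavl4 were the other lower genes. Without the limit on Neurod6, Sox4, Sox11 and Neurod2 lost their calls, as did Cdkn1c, Tubb3 and Unc5d described further on, so that these depended on that gate. The earlier factors did not pass. Neurog2 was at 653 and 508 CPM in IPCs without cycle UMIs and 435 and 340.4 in the members (-0.60 ± 0.17, adjusted p = 0.0581). Gadd45g was at 656 and 937 CPM in IPCs without cycle UMIs and 352 and 500.3 in the members (-0.92 ± 0.31, adjusted p = 0.0954). Insm1 was at 109 and 109 CPM in IPCs without cycle UMIs and 185 and 117 in the members (0.44 ± 0.24, adjusted p = 0.289). With the replicate block, Neurog2 and Gadd45g were lower in the members (adjusted p = 0.0284 and 0.000249). Dll1 stood at 39.9 and 49.5 CPM in IPCs without cycle UMIs and 45 and 49.5 in the members (0.05 ± 0.21, adjusted p = 0.939).

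Of 30 RGC genes, 9 were higher and 1, Nfix, lower in the members (median 0.56). Sox2 was at 115 and 80 CPM in IPCs without cycle UMIs and 221 and 181 in the members (1.03 ± 0.21, adjusted p = 0.0161). Nes was at 48.7 and 45.5 CPM in IPCs without cycle UMIs and 143 and 102 in the members (1.36 ± 0.17, adjusted p = 0.00132). Sox9 was at 61.8 and 60.2 CPM in IPCs without cycle UMIs and 118 and 138 in the members (1.05 ± 0.15, adjusted p = 0.00262). The members thus lay between cycling RGCs and IPCs without cycle UMIs in Nes and Sox9, with both steps past the test, while for Sox2 the step from IPCs without cycle UMIs passed and the step to cycling RGCs did not. Sox2 and Sox9 were not called against IPCs without cycle UMIs when only cells of 6000 to 20000 UMIs were used, which brings the depths of the classes together. Notch2 was at 28.9 and 18.6 CPM in IPCs without cycle UMIs and 114 and 118 in the members (2.29 ± 0.27, adjusted p = 0.00105), and Notch1 and the coactivator Maml2 were also higher. Tcf7l1, Tcf7l2, Fgfr1, Fgfr3, Spred1, Bmpr1b and Id1 made up the 7 higher of 31 Wnt, FGF and BMP genes, with Bmpr1b, a BMP receptor, at 56.5 and 51.3 CPM in IPCs without cycle UMIs and 201 and 148 in the members (1.67 ± 0.22, adjusted p = 0.00165). Wnt7b, a ligand of neurons, was lower, at 35.9 and 25.4 CPM in IPCs without cycle UMIs and 7.94 and 6.90 in the members (-2.02 ± 0.33, adjusted p = 0.00577).

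Of 25 tested genes of G1 control, 11 were higher and Cdkn1c, an inhibitor of cyclin-dependent kinases that is linked to cell cycle exit, was lower. Cdkn1c was at 156 and 223 CPM in IPCs without cycle UMIs and 18.5 and 43.7 in the members (-2.60 ± 0.36, adjusted p = 0.00235), near the 37.5 and 27.4 of cycling RGCs. Ccnd1 was at 54.4 and 55.3 CPM in IPCs without cycle UMIs and 224 and 109 in the members (1.57 ± 0.36, adjusted p = 0.0242). Ccnd2 was at 391 and 415 CPM in IPCs without cycle UMIs and 754 and 618 in the members (0.75 ± 0.16, adjusted p = 0.0169). Cdk6 was at 150.3 and 86.7 CPM in IPCs without cycle UMIs and 590.3 and 281 in the members (1.87 ± 0.36, adjusted p = 0.0115). Cdkn2c, an inhibitor of Cdk4 and Cdk6 that accumulates in dividing cells, was higher, at 2.63 and 4.58 CPM in IPCs without cycle UMIs and 41 and 34.5 in the members (3.23 ± 0.31, adjusted p = 0.000285). Dnmt1, which copies methylation at replication forks, was at 25 and 29.6 CPM in IPCs without cycle UMIs and 78.1 and 82.8 in the members (1.52 ± 0.15, adjusted p = 0.000364). Genes of G1 control are linked to division, which the gate on cycle genes selected.

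Of 30 neuronal genes, 10 were lower and Ncam1 was higher in the members (median -0.79). Tubb3, neuronal tubulin, was at 363 and 419 CPM in IPCs without cycle UMIs and 122 and 209 in the members (-1.25 ± 0.23, adjusted p = 0.00929). Rbfox3 was at 441 and 393 CPM in IPCs without cycle UMIs and 172 and 162 in the members (-1.34 ± 0.22, adjusted p = 0.00593). Unc5d, a netrin receptor of multipolar cells, was at 1139 and 652 CPM in IPCs without cycle UMIs and 134 and 200.1 in the members (-2.43 ± 0.50, adjusted p = 0.0163). Of the 35 receptors and ligands, 6 were lower and Dab1 was higher, at 139 and 123 CPM in IPCs without cycle UMIs and 224 and 228 in the members (0.77 ± 0.16, adjusted p = 0.0188). Sstr2 was at 105 and 114 CPM in IPCs without cycle UMIs and 27.8 and 31.1 in the members (-1.90 ± 0.17, adjusted p = 0.000163). Nrp2, a semaphorin receptor, was at 94.7 and 40.9 CPM in IPCs without cycle UMIs and 7.94 and 11.5 in the members (-2.74 ± 0.53, adjusted p = 0.0126). Ephb1 was at 170.1 and 173 CPM in IPCs without cycle UMIs and 67.5 and 62.1 in the members (-1.42 ± 0.26, adjusted p = 0.00921). Among genes outside the lists, Pcp4, a calmodulin regulator of deep-layer neurons, fell from 85.5 and 63.2 to 13.2 and 5.75 CPM (-2.98 ± 0.40, adjusted p = 0.00187) and Nkd1, a Wnt antagonist, from 46 and 62.9 to 9.26 and 8.05 (-2.67 ± 0.44, adjusted p = 0.00572).

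**Figure D3:**
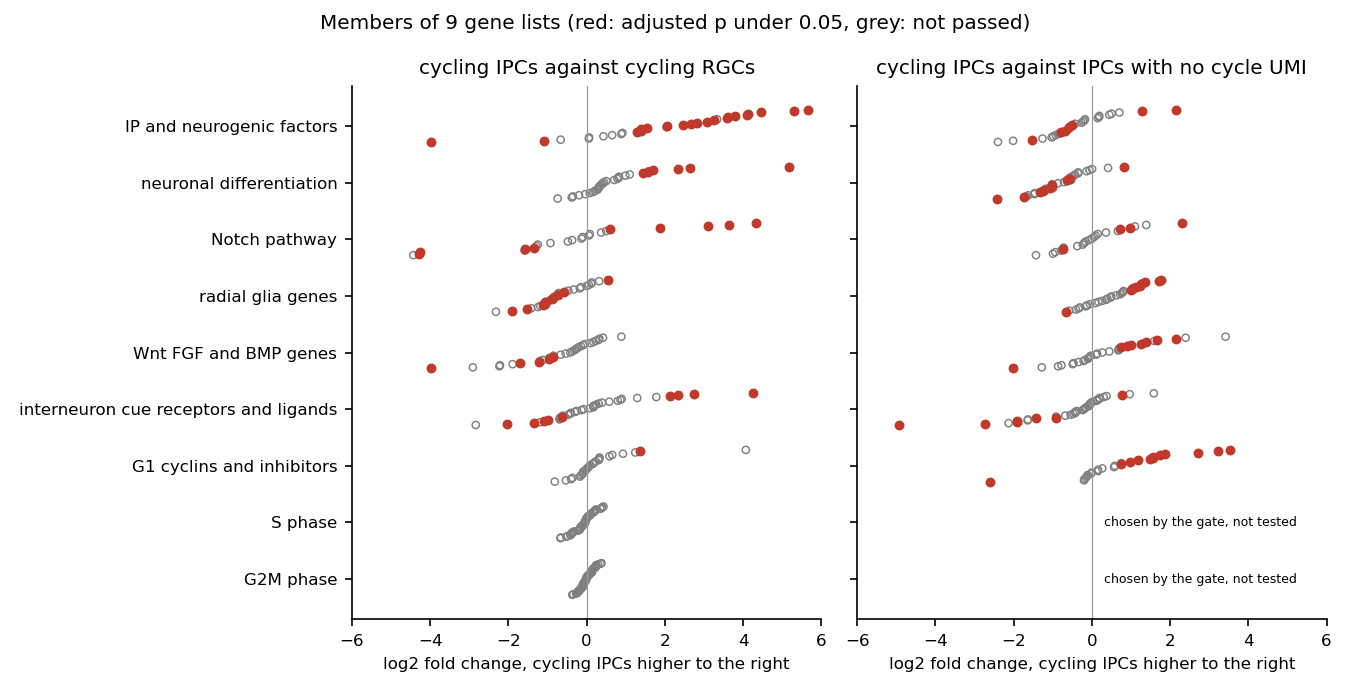
Log2 fold changes of the genes of 9 lists in cycling IPCs against cycling RGCs (left) and against IPCs without cycle UMIs (right), 1 point per gene, with red for adjusted p under 0.05. The median of the neurogenic genes lies to the right of 0 in the left panel (2.06) and to its left in the right panel (-0.52), whereas that of the RGC genes does the reverse (-0.78 and 0.56). In each panel, 2 neurogenic genes and 1 RGC gene were called on the other side of 0 from their median. S and G2M genes of the right panel follow from the gate and carry no test. Neurod4 is drawn at its fitted value although cycling RGCs held no UMI of it.

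RGC and neurogenic genes were also counted cell by cell. Shares of cells with at least 1 UMI were taken on cells thinned to 3000 UMIs, which kept 106 of 107 members, 547 of 560 IPCs without cycle UMIs, 1297 of 1307 cycling RGCs and 333 of 336 vascular and meningeal cells, the last as the background of free RNA (median depths before thinning 13635 and 11572 UMIs). Neurog2 was found in 72.9% of members in replicate 1 (59.0 to 83.4) and 58.6% in replicate 3 (45.8 to 70.4), against 7.64% and 8.90% of cycling RGCs and 0.909% and 0.897% of vascular cells. Sox2 was found in 39.6% (27.0 to 53.7) and 41.4% (29.6 to 54.2) of members, 25.6% and 17.1% of IPCs without cycle UMIs, 60.6% and 50.5% of cycling RGCs and 1.82% of vascular cells in replicate 1 and 0 of 223 in replicate 3, which allows up to 1.35%. Without thinning, Neurog2 was found in 93.9% and 86.2% of members and Sox2 in 87.8% and 81.0%, against 21.3% and 26.3% and 90.4% and 89.3% of cycling RGCs. Neurog2 and Sox2 together were seen in 29.2% and 29.3% of members, 23.3% and 12.2% of IPCs without cycle UMIs, and 5.09% and 3.82% of cycling RGCs. Without thinning they were seen together in 81.6% and 70.7% of members and in 20.4% and 23.8% of cycling RGCs. Doublet-scored cells were kept in these shares, and their part in them was not tested. They made up 2.04% and 12.1% of members, 0.450% and 1.18% of IPCs without cycle UMIs and 2.29% and 3.33% of cycling RGCs.

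At least 1 of Sox2, Pax6, Hes1 and Hes5 along with at least 1 of Neurog2, Insm1, Btg2 and Gadd45g was seen in 62.5% of members in replicate 1 (48.4 to 74.8) and 51.7% in replicate 3 (39.2 to 64.1). The share was 49.3% and 37.5% in IPCs without cycle UMIs, 18.3% and 18.0% in cycling RGCs and 3.64% and 1.35% in vascular cells. Without thinning it was 93.9% and 91.4% in members, 77.0% and 76.3% in IPCs without cycle UMIs, 56.9% and 59.7% in cycling RGCs and 33.3% and 27.1% in vascular cells. Rbfox3 was seen in 27.1% and 37.9% of members, 58.0% and 55.2% of IPCs without cycle UMIs and 0.926% and 0.809% of cycling RGCs, below the 1.82% and 2.24% of vascular cells. Insm1 was seen in 43.8% (30.7 to 57.7) and 29.3% (19.2 to 42.0) of members, in 28.8% and 29.3% of IPCs without cycle UMIs and in 0 of 110 and 0 of 223 vascular cells, which allows up to 2.73% and 1.35%. Without thinning, Rbfox3 was seen in 57.1% and 58.6% of members and Insm1 in 79.6% and 69.0%. Hes1 was no more frequent in members, at 8.33% and 1.72%, than in vascular cells, at 29.1% and 25.1%, a cell type that expresses it. An absent UMI at this depth does not show an absent transcript.

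**Figure D4:**
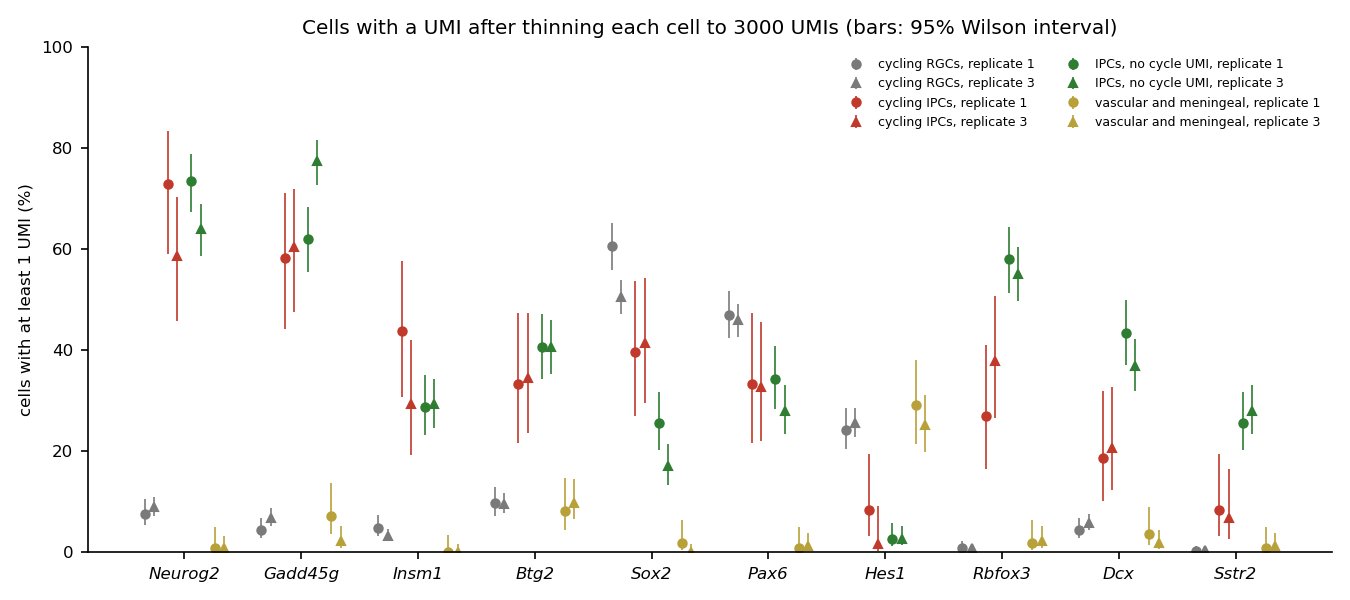
Share of cells with at least 1 UMI of 10 genes after thinning each cell to 3000 UMIs, for 4 classes, with marks for the 2 replicates and 95% Wilson intervals. In members, Neurog2 reaches 72.9% and 58.6% and Sox2 39.6% and 41.4%, and Neurog2 stays under 1% in vascular and meningeal cells.

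The members were next compared between phases, with 11 and 14 members in the S sums and 32 and 38 in the G2M sums. Of 10221 genes, leaving out the phase genes, 45 (0.44%) were higher and 34 (0.333%) lower in G2M than in S (0.773% in all). Other cycle genes stayed in the test, and their differences are tied to the phase calls that split the sums. Pttg1, Aspm, Nde1, Plk1, Cdt1 and Ccne1, given below, are such genes, so their values describe the split. DESeq2 called 65 and 98, so that 39.9% of its calls were higher against 57.0% here, and the replicate block called 71 and 62. Arl6ip1, an endoplasmic reticulum shaping protein, was at 135 and 82.4 CPM in S and 725 and 814 in G2M (2.87 ± 0.23, adjusted p = 0.000623), and Pttg1, securin, which restrains chromatid separation, at 46.9 and 4.85 CPM in S and 327 and 338 in G2M (3.78 ± 0.42, adjusted p = 0.00614). Of 23 spindle and microcephaly genes, 5 were higher, among them Aspm, a spindle pole protein, at 17.6 and 43.6 CPM in S and 172 and 156 in G2M (2.37 ± 0.34, adjusted p = 0.0114). Nde1, a dynein regulator, was at 29.3 and 38.8 CPM in S and 143 and 177 in G2M (2.22 ± 0.28, adjusted p = 0.00614). The mitotic kinase gene Plk1 had 3 UMIs in S and 121 in G2M, a ratio of 13.7 (exact 95% counting interval 4.59 to 67.5). Lower in G2M were the replication licensing gene Cdt1, at 117 and 96.9 CPM in S and 17.8 and 6.63 in G2M (-3.07 ± 0.44, adjusted p = 0.0122), and cyclin E1, Ccne1, at 41 and 77.5 CPM in S and 9.91 and 8.29 in G2M (-2.62 ± 0.45, adjusted p = 0.0247).

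None of the 26 neurogenic, 20 Notch, 28 RGC and 29 neuronal genes tested passed between S and G2M in the members. At an unadjusted p under 0.05, 0, 2, 6 and 4 of them did. With the replicate block, the RGC gene Vim, an intermediate filament, was higher in G2M (0.69 ± 0.16, adjusted p = 0.105 without the block and 0.00748 with it), as was the adhesion gene Ncam1 of the neuronal list (0.69 ± 0.18, adjusted p = 0.147 without it and 0.0332 with it). Neurog2 was at 416 and 407 CPM in S and 456 and 317 in G2M (-0.07 ± 0.22, adjusted p = 0.951). Gadd45g was at 340.1 and 567 CPM in S and 369 and 431 in G2M (-0.17 ± 0.26, adjusted p = 0.873). Rbfox3 was at 229 and 189 CPM in S and 178 and 156 in G2M (-0.29 ± 0.30, adjusted p = 0.785). For Neurog2 and Gadd45g the replicates of the phases overlapped, and for Rbfox3 they did not. Sox2 was at 141 and 131 in S and 246 and 204 in G2M (0.75 ± 0.27, adjusted p = 0.298).

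Against cycling RGCs of the same phase, 195 genes (1.91%) were higher and 133 (1.3%) lower in S (3.21% in all), the latter 251 with the replicate block, and 305 (2.98%) higher and 237 (2.32%) lower in G2M (5.3% in all), the latter 424 with the block. Neurog2 was at 10.1 and 15.9 CPM in S phase RGCs, and the members were higher (4.80 ± 0.27, adjusted p = 1.40e-05). In G2M it was at 33.1 and 35.7 in RGCs, and the members were again higher (3.48 ± 0.21, adjusted p = 1.19e-05). Hes6 was higher in S (3.15 ± 0.19, adjusted p = 2.06e-05) and in G2M (3.18 ± 0.15, adjusted p = 5.24e-06), as was Dll1 (3.75 ± 0.56, adjusted p = 0.00484 and 3.62 ± 0.37, adjusted p = 0.000374). Neurogenic genes were higher in 15 of 26 and 18 of 26 cases, and 2 were lower in each phase. RGC genes were lower in 11 of 28 cases in S (median -1.14) and in 7 of 28 in G2M (median -0.76), with 1 higher in G2M. Hes1 was at 5.86 and 14.5 CPM in S members and 100.1 and 111 in S phase RGCs (-3.26 ± 0.37, adjusted p = 0.00102). These levels of the S members rest on few UMIs from 11 and 14 cells.  Hes1 was at 39.6 and 34.8 in G2M members and 103.1 and 104 in G2M RGCs (-1.44 ± 0.19, adjusted p = 0.00195). Within the members, Hes1 did not pass between S and G2M (1.76 ± 0.47, adjusted p = 0.156 by edgeR). Sox2 did not pass in S (-0.92 ± 0.25, adjusted p = 0.0895) or in G2M (-0.34 ± 0.20, adjusted p = 0.4), and with the replicate block it was lower in S (adjusted p = 0.00939).

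Whether the difference from cycling RGCs changed between S and G2M was tested directly. No gene of 10221 passed (0.0%), and 516, or 5.05%, had an unadjusted p under 0.05. DESeq2 called 1, Ppfia2, and edgeR without the filter on low counts called 44 of 21572. Ppfia2, a scaffold of presynaptic release sites, named after its values were seen, was at 93.8 and 165 CPM in S members and 7.93 and 18.2 in G2M members, against 28 and 29.7 CPM in S and 40.1 and 26 in G2M in RGCs. Its change between phases in the members (-3.19 ± 0.48, adjusted p = 0.015) fell short once doublet-scored cells were left out (-2.21, adjusted p = 0.233), and its interaction had an adjusted p of 0.318 (0.00179 by DESeq2). Rims1, a partner at the same sites, showed the same order in the members, at 106 and 96.9 in S members and 15.9 and 18.2 in G2M members (-2.48 ± 0.29, adjusted p = 0.00614), with 61.5 and 57.6 CPM in S and 46.5 and 43.1 in G2M in RGCs. The RGC values of Rims1 were thus lower in G2M as well, and the interaction of Rims1 did not pass. The ephrin receptor Ephb1 had 1 UMI in S members and 76 in G2M members, a ratio of 25.9 (exact 95% counting interval 4.50 to 1035), while RGCs held 60.4 and 69.4 CPM in S and 101 and 131 in G2M. Its interaction did not pass (adjusted p = 0.957, from 0.00762 to 0.999 over the alternatives). Its change within the members (adjusted p = 0.0231) was called with the replicate block (0.0119) and lost its call with DESeq2, at 6000 to 20000 UMIs and without doublet-scored cells.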

How the data were processed

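Both libraries were prepared with the 10x Genomics 3' v3.1 protocol, loaded independently, and per the labels the authors used Cell Ranger 7.0.0 and mm10. The deposited values are raw UMI counts per gene and barcode, with no normalization. The analysis kept barcodes whose UMI total lay between 1500 and 60000 and whose mitochondrial share was below 10%. Doublets were scored against simulated doublets, with the top 0.8% per 1000 barcodes marked and left in. UMIs were summed per class and replicate, and edgeR 4.0.16 (quasi-likelihood test, TMM scaling, filterByExpr, prior count of 2, Benjamini-Hochberg adjustment) was fitted over all genes in R 4.3.3. DESeq2 1.42.0 was an alternative. The other steps used Python 3.11.15, scanpy 1.11.5 and scipy 1.17.1. The scripts were tested on simulated data.

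All class sums with the same replicate number were taken from a single library and are therefore paired. Deviations of same-numbered class sums correlated at 0.0653 to 0.215 and those of phase sums at 0.0721 to 0.394. The block was the alternative fit. Named genes were those of fixed lists and, per comparison, the 10 with the largest change in each direction among called genes at 50 CPM or more with the same sign in both replicates, without gate genes and gene models; per list, up to 6 were taken by size or stated role. The members and lists were chosen with earlier results of these data known. Cells sharing a library are not replicates.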

Additional observations from a re-analysis of the deposited data

How the results depend on the processing

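Of 3116 alternative values of single genes, 2844 held, either in direction and call or, for uncalled genes, within 1 SE. A further 44 passed the threshold only in the alternative, 170 fell short of it, 54 uncalled ones moved by over 1 SE and 4 reversed. The fits rest on 2 libraries and 107 members, with 11 and 14 members in the S phase sums. Shares of cells with a UMI depend on depth. The removal of vascular cells, of hem or Cajal-Retzius members, and of the Neurod6 limit was chosen after seeing the data. The cause of each change was not tested, apart from changes that follow from more genes or other cells entering a fit.

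Against IPCs without cycle UMIs, genes lower numbered 815 with the replicate block, 1125 without the filter on low counts and 831 without the Neurod6 limit, which gave 1459 higher. Against cycling RGCs, genes higher numbered 647 without the filter, 632 by DESeq2 and 2136 without the Neurod6 limit, and genes lower 512 with the block, 1078 without the filter and 1590 without the limit. Between G2M and S, genes higher numbered 71 with the block, 159 without the filter and 18 at 6000 to 20000 UMIs, and genes lower 62, 125, 98 by DESeq2 and 55 with cells thinned to 1500 UMIs. Within S, DESeq2 gave 294 higher, and genes lower numbered 251 with the block, 505 without the filter and 225 at 6000 to 20000 UMIs. Within G2M, genes lower numbered 424 with the block and 666 without the filter. The interaction gave 21 higher and 23 lower without the filter, and 1 lower by DESeq2. The replicate block changed no other call of a gene given with its test.

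The share of members was 0.974% under 5% mitochondrial UMIs, 0.375% with the stricter gate and 0.431% with the gate after thinning, and 0.775% to 0.899% without either replicate. Members in S made up 24.4% without doublets, 26.5% at 6000 to 20000 UMIs, 22.2% under 5% mitochondrial UMIs and 25.3% thinned to 1500 UMIs, and in G2M 64.4%, 62.7%, 67.1% and 65.3%, with 22.9% to 24.1% and 65.5% to 66.7% without either replicate. Thinned to 1500 UMIs and without thinning, Neurog2 was seen in 42.8% and 90.0% of members, Sox2 in 23.8% and 84.4%, and Pax6 in 22.3% and 81.1%.

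Against cycling RGCs, the direction turned for Cdkn1c without the Neurod6 limit (1.75, adjusted p = 0.0288 by edgeR), for Cxcl12 without that limit (0.045, adjusted p = 0.892 by edgeR) and without vascular cells (1.79, adjusted p = 0.186 by edgeR), and for Col4a1 without vascular cells (0.23, adjusted p = 0.922 by edgeR).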

Other observations

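The 235 barcodes that met every gate but the limit on Neurod6 scored as G2M in 75.7% of cases, and 59 of them (25.1%) were among the barcodes with the highest doublet scores. Exactly 3 Neurod6 UMIs, the first count above the limit, were held by 20 of them.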
